A study of Homo sapiens with 6 samples.

Results

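Broad open domains are stretches of several kilobases that ATAC-seq reads as 1 uninterrupted block of accessible chromatin. In untreated MCF10A cells 858 such domains were found among 44670 merged open regions of chromosomes 1 to 22 and X. A domain was a merged region that held a single call of at least 3000 bp in each control library. Control call width therefore chose the members, and it is given below as a description, with no test. MCF10A is a non-tumorigenic human mammary epithelial line, grown in medium with horse serum, EGF, hydrocortisone, cholera toxin and insulin. Every culture, control included, was first held for 30 min in phosphate-free HEPES-buffered Hanks solution. It was then left without treatment (Control), given 50 μM Tris(2-pyridylmethyl)amine (TPA), a Zn2+ chelator, or given 30 μM ZnCl2, in each case for 30 min, with 2 libraries per condition and 6 in all. All cells were wild type and of the same line. The study's text calls the replicates biological in its methods and technical in its results, so the spread between libraries may be technical.

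ATAC-seq uses a transposase to insert adapters where DNA is not covered by nucleosomes, and HMMRATAC, the authors' caller, marks the open stretch between flanking nucleosomes. Most open regions are a promoter or an enhancer with few nucleosomes displaced. Unusually wide ones are known from promoters of highly transcribed and cell-identity genes, and from immediate early genes, whose promoters are held open so that growth factors can switch them on within minutes. Zinc is a cofactor of the zinc-finger transcription factors that bind such sites, and metallothioneins are small proteins that bind surplus zinc.

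The 6 lists differed in yield and in how wide their calls ran, and these differences reach every value below. They held 18883 to 44637 calls on the chromosomes used. The share of calls of at least 3000 bp was 4.35% in Control 1, 17.4% in Control 2, 4.77% in TPA 1, 6.02% in TPA 2, 9.07% in ZnCl2 1 and 22.1% in ZnCl2 2. Control 2 was thus nearest to ZnCl2 2, and Control 1 to TPA 1. No read counts were at hand, so the depth behind each call is unknown.

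The domains lay mostly over promoters. A protein-coding start site lay inside 610 of the 858 domains (71.1%), an alternative start of a coding gene inside 110 (12.8%), a gene body without a start under 74 (8.62%), and 64 (7.46%) were intergenic. Among the 22506 other merged regions that held a single call in each control library, 31.8% had a coding start site. Together the domains held the start sites of 736 of 19206 coding genes, or 3.83%, the background for the gene lists below. They spanned 4.80 Mb, with a median length of 4830 bp and a range of 3090 to 34770 bp. A group of 116 domains held at least 2 coding start sites, and 66 held a whole coding gene. Genes shorter than 5000 bp were 14.9% of the genes that start in a domain and 7.72% of the 8298 that start in another such region. By density, chromosome 19 had 7.85 domains per 10 Mb and chromosome 17 had 5.89, against 0.256 on the X chromosome. As a share of the regions with a single call per control library, domains were 4.69% on chromosome 19, 4.64% on chromosome 17, 4.55% on chromosome 1 and 1.15% on X, so density partly followed the number of open regions.

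The promoters of the domains' best-known members are given here because these are promoters the wide calls cover and the results below turn on: those of immediate early genes, a pair of basal epithelial genes and the zinc-responsive MT2A. Each sequence runs 5′ to 3′ on the gene's strand and ends at or within 2 bases of the RefSeq start site (GRCh38.p14). Of 736 genes that start in a domain, 606 had an entry in the promoter table. Capitals mark GC boxes (GGGCGG, bound by Sp and KLF factors), AP-1 sites (TGANTCA), CRE sites (TGACGTCA), TATA boxes (TATAAA) and CArG boxes (the site of serum response factor), each searched on both strands. The CArG boxes of EGR1, an immediate early zinc-finger factor, stand at chr5:138465229-138465478 on the plus strand. FOS lies at chr14:75278578-75278825 on the plus strand, JUN at chr1:58784049-58784297 on the minus strand and JUND at chr19:18281623-18281872 on the minus strand, and these 3 encode subunits of AP-1. DUSP1, a phosphatase that switches off MAP kinases, lies at chr5:172771196-172771445 on the minus strand, and KLF4, an epithelial zinc-finger factor, at chr9:107489770-107490019 on the minus strand.
EGR1: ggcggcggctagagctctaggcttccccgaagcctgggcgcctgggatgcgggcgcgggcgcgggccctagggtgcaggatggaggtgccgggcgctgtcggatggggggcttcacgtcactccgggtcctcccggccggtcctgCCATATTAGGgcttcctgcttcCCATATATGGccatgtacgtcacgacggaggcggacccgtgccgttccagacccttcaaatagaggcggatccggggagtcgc
FOS: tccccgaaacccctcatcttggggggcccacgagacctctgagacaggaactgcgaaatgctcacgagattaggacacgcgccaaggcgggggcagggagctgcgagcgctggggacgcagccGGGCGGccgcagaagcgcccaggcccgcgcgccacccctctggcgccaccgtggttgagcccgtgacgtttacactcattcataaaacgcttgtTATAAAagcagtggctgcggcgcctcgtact
JUN: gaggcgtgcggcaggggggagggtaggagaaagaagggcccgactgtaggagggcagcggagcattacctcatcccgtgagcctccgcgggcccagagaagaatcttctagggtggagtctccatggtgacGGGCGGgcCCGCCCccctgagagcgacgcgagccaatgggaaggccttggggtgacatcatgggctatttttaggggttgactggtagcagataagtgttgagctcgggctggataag
JUND: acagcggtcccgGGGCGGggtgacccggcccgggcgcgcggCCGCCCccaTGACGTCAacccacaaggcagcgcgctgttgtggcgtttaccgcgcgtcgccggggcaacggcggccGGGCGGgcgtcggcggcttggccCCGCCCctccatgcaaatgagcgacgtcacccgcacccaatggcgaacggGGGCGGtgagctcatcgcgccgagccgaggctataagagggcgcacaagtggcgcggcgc
DUSP1: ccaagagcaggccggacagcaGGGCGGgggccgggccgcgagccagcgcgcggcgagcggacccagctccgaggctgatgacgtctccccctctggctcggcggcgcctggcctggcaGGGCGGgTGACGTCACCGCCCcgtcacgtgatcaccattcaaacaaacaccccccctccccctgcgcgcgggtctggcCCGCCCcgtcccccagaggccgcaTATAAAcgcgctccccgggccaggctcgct
KLF4: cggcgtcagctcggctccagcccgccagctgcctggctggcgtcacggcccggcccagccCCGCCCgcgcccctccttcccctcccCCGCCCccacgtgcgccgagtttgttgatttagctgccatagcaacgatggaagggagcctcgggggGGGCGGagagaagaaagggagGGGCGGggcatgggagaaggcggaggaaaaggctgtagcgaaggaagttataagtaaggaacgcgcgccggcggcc

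EGR1 had 2 CArG boxes and no GC box in these 250 bases, a count of CArG boxes that 0.0392% of 15315 coding promoters reach. JUND had 5 GC boxes, DUSP1 and KLF4 had 4 each, and JUND and DUSP1 had a CRE site each. No AP-1 site of these letters lay before the start of any of the 12 immediate early genes with a sequence. Across the 606 promoters of genes that start in a domain, 72.9% held a GC box, against 56.7% of all 15315 coding promoters. A CArG box was in 1.32% of them against 1.16% of all, and an AP-1 site in 3.47% against 5.02%. All coding promoters include closed ones, so these shares do not compare domains with other open promoters. Among open regions with a coding start, GC boxes occurred 2.45 times per kb in domains and 2.30 in others. In the central 300 bp of those regions a GC box was in 51.0% of domains and 59.3% of others.

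The basal and zinc-responsive members were ITGA6 at chr2:172427086-172427335, SFN at chr1:26862899-26863148 and MT2A at chr16:56608334-56608583, all on the plus strand. ITGA6 encodes the integrin subunit that anchors basal cells to laminin, SFN an epithelial 14-3-3 protein, and MT2A a metallothionein. In MT2A the capitals also mark the core of the metal response element (TGCNCNC, either strand), the site of the zinc-sensing factor MTF1.
ITGA6: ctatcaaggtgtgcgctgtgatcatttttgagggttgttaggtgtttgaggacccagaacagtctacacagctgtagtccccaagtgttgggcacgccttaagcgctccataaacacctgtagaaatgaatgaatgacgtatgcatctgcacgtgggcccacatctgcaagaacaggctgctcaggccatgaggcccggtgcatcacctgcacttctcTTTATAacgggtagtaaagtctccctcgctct
SFN: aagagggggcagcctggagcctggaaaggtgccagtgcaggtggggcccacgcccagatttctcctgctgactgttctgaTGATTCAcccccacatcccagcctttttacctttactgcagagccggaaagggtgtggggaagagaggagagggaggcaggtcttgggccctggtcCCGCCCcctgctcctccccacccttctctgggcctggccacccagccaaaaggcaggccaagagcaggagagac
MT2A: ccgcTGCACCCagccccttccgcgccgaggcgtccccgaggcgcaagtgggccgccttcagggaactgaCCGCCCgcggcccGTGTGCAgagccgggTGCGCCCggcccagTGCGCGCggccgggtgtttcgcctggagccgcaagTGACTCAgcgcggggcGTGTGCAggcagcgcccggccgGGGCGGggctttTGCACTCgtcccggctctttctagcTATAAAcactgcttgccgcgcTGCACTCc

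The MT2A sequence held 7 matches to that core, a number that 0.0784% of coding promoters reach, where the median is 1. It also held an AP-1 site, and so did SFN.

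The 10 lists examined were chosen with earlier results of these data known. Among them, genes of the AP-1 and immediate early program had the highest share in a domain. The start site of 14 of 26 such genes (53.8%) lay in a domain, namely FOS, FOSB, FOSL2, JUN, JUND, EGR1, IER2, IER3, DUSP1, DUSP4, DUSP6, KLF4, KLF6 and SPRY4. The bodies of ATF3 and EGR2, from the same list, were also under a domain. The share was 3.83% over all coding genes and 7.87% over the 8971 coding genes whose start site was open in both control libraries, as it was for 20 of these 26. Of the 26 genes, 7 were shorter than 5000 bp, and 6 of those 7 started in a domain. Over open start sites of genes that short, 13.4% were in a domain. With a minimum of 4000 bp the count was 5 of 26, against 1.09% of coding genes, and with 2000 bp it was 18, against 15.6%.

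Cell identity genes were in the domains in smaller shares than the immediate early genes. The shares were 15.4% of basal, 10.5% of luminal and 7.69% of mesenchymal genes. Each was above the 3.83% of all coding genes but rests on few genes. Of 26 basal epithelial genes, 19 were open at the start site in both controls and 4 started in a domain: KRT5, a basal keratin, ITGA6, SFN and the Notch ligand JAG1. LAMB3, S100A2 and PLEC had a domain elsewhere in the gene. Of 19 luminal genes, 6 were open and 2 (KRT7 and MUC1) started in a domain, and of 13 mesenchymal genes 7 were open and 1 (VIM, an intermediate filament that cultured mammary cells also make) did. As a check of the labelled epithelial line, of 18 blood, nerve, liver and endothelial genes 1 was open at its start in both controls, the neuronal tubulin TUBB3, and it was also the 1 that started in a domain.

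The remaining lists gave 4 of 11 glucocorticoid response genes, namely FKBP5, KLF9, DUSP1 and CEBPD, where 6 were open at the start in both controls. KLF9 was not among these 6, as no Control 1 call covered its start site. Of 35 developmental homeobox and bHLH genes 20 were open and 7 started in a domain (among them TBX3, IRX2, IRX3, IRX5, SOX4 and ID1). There were 2 of 16 YAP and TEAD genes (TEAD4 and AJUBA, 13 open), 2 of 16 housekeeping genes (HSPA8 and YWHAZ, 14 open), and 1 of 13 zinc and metallothionein genes (MT2A, 9 open). Beside these stand 3.83% of all coding genes and 7.87% of those open at the start in both controls. DUSP1 is counted in 2 lists.

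**Figure D1:**
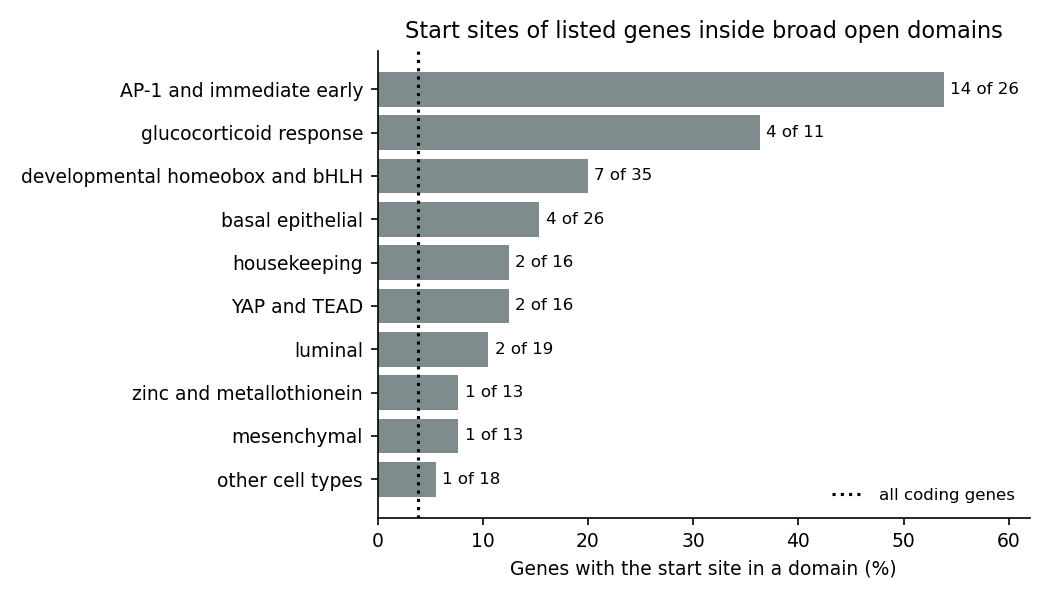
Percent of the genes of each list (bars, with counts) whose start site lay in a broad open domain of untreated cells; the dotted line is the 3.83% of all coding genes. The AP-1 and immediate early list reached 53.8% and the other cell types 5.56%. The lists were chosen with earlier results of these data known.

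Gene families were picked from the domains' names after these were read, so their counts are a description and no list among them was fixed. Core and linker histone genes, which are short and clustered, had the start site of 21 of 69 coding genes in a domain (46 were open at the start in both controls), spread over 9 domains. It was 6 of 23 dual-specificity phosphatases (17 open), namely DUSP1, DUSP4, DUSP6, DUSP7, DUSP10 and DUSP14. It was 6 of 18 Krüppel-like factors (9 open), namely KLF4, KLF6, KLF9, KLF10, KLF12 and KLF13. KLF9 was not among those 9, as its start site had no call in Control 1. Of 6 Iroquois homeobox genes 4 were open and 4 were in a domain (IRX2 to IRX5), and of 5 AP-2 factors 2 were open and 2 were in a domain (TFAP2A and TFAP2C). Ribosomal protein genes gave 3 of 73 (56 open) and laminins 1 of 12 (7 open), beside 3.83% of all coding genes and 7.87% of those open in both controls.

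The domains with the widest control calls were of another kind. Of the 11 whose smaller control call was at least 10000 bp, 7 had no coding start site. The widest, at chr12:37235771-37270540 (hg38), was intergenic, with the nearest coding start 1063606 bp away and 38.3% GC. Its widest call was 34510 and 34600 bp in the controls, 34420 and 34430 bp under TPA, and 15500 and 2260 bp under ZnCl2. Intergenic stretches at chr16:46385851-46405560 and chr16:38265811-38280650 and at chr5:49656511-49667340 also ranked among the widest 10. In that order their nearest coding starts were 225673, 4428002 and 781322 bp away, with 36.0%, 38.8% and 41.4% GC. The authors removed artifact-prone regions before testing accessibility. Their list was not used here, so whether these intergenic stretches lie on it is unknown. Domains at genes in this group were ZNF57, a zinc-finger gene, the killer cell lectin-like receptor genes KLRC3 and KLRC4, IFITM1, an interferon-induced membrane protein, and FGF18, a growth factor, with domains in CTIF and at an alternative start of PLEC, which encodes the cytoskeletal linker plectin.

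Several of these very wide domains were held in 5 of the libraries and short or absent in ZnCl2 2. The stretch in CTIF, a translation factor, had calls of 15620 to 16100 bp in the controls and TPA, 15750 bp in ZnCl2 1 and 1000 bp in ZnCl2 2. IFITM1 had 13260 and 15170 bp in the controls, 13400 and 30580 bp under TPA, 13950 bp in ZnCl2 1 and no call in ZnCl2 2. The chromosome 5 stretch had 10350 to 10830 bp in the first 5 libraries and 2620 bp in ZnCl2 2. ZnCl2 2 was also the shortest list, with 18883 calls, and the part of list length in these values was not tested.
Others had a wide call throughout. PLEC had 14300 and 15220 bp in the controls, 11480 and 13400 bp under TPA and 13570 and 15280 bp under ZnCl2. The stretch at chr16:38265811-38280650 had 14550 to 14840 bp in the 6 libraries, and that at chr16:46385851-46405560 had 19710 and 15510 bp in the controls, 18320 and 36120 bp under TPA and 15520 and 5940 bp under ZnCl2. FGF18 had 10800 and 11670 bp in the controls, 33650 and 10210 bp under TPA and 13110 and 15330 bp under ZnCl2. Both ZnCl2 calls were wider than both control calls at FGF18, but the ZnCl2 1 call ran in part outside the domain. It covered 6940 bp of the domain, against 10800 and 11670 bp in the controls and 11000 bp in ZnCl2 2. Each of these domains kept a call wider than 3000 bp in the 6 libraries.

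At the 3000 bp limit the members faded into other regions without a gap. The smaller control call was exactly 3000 bp at 11 domains, among them TMCC2 (3000 and 4780 bp in Control 1 and 2) and a stretch in HK1 (3000 and 5840 bp). It was 2990 bp at 13 regions just outside, such as ZNF703 (2990 and 3800 bp) and CSNK1E (2990 and 7480 bp). Of the 858 domains 809 were wider in Control 2 than in Control 1.

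Around a start site the domains were lopsided toward the gene. In the 494 domains with a single coding start, the call over the start reached a median of 1123 bp upstream and 2415 bp downstream in Control 1, and 1572 and 3208 bp in Control 2. The 4 treated libraries had medians of 1067 to 1402 bp upstream and 2300 to 2809 bp downstream. Downstream was the longer arm at 77.2% to 82.2% of start sites in the 6 libraries. It was also the longer arm at 76.8% and 77.4% of the start sites of other regions in the controls, where the arms were 582 and 945 bp in Control 1.

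**Figure D2:**
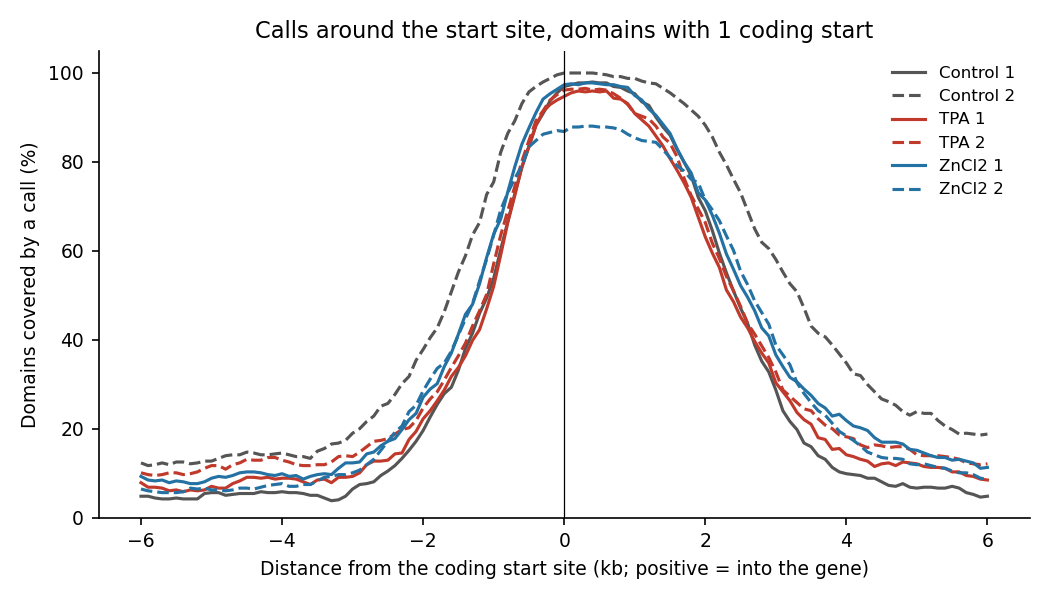
Percent of the 494 domains with 1 coding start that a call covered (y axis) by distance from that start in kb (x axis, positive into the gene), 1 line per library, solid for replicate 1 and dashed for replicate 2. Coverage extended further into the gene than upstream in the 6 libraries, and ZnCl2 2, which had a call at 769 of the 858 domains, stayed lowest at the start.

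In sequence the domains were richer in G and C than other open regions and poorer in AP-1 sites. GC content averaged 55.9% ± 6.23 (SD over 858 domains) against 50.0% ± 7.62 over the 22506 others, and the ratio of observed to expected CpG 0.562 against 0.395. The CpG ratio turned with start sites: with a coding start it was 0.615 in domains and 0.636 in others, and without it 0.433 and 0.282. An AP-1 site (TGANTCA) occurred 0.306 times per kb in domains and 0.596 times per kb elsewhere. In the central 300 bp the site was in 6.99% of domains and 23.3% of other regions. With a coding start these shares were 5.74% and 3.80%, and without it 10.1% and 32.4%. The difference in AP-1 density depended on start sites: with a coding start the density was 0.259 per kb in domains and 0.217 in others, and without it 0.422 and 0.773. GC boxes occurred 2.14 times per kb against 1.14, and among regions with a start 2.45 against 2.30. In the central 300 bp a GC box was in 45.7% of domains and 29.4% of others, but in 51.0% against 59.3% of those with a start. The center was less often at the promoter in domains. Among regions with a start, it lay within 500 bp of the center in 30.8% of domains and 66.7% of others.

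Most domains had a call in each treated library. A call was present at 845 and 853 of the 858 domains in TPA 1 and TPA 2, at 856 in ZnCl2 1 and at 769 in ZnCl2 2, and 759 domains had a call in all 6 libraries. The domain was split into more than 1 call at 79, 104, 99 and 21 domains in the same order. It was still a single call of at least 3000 bp at 599 (69.8%) and 604 (70.4%) domains in TPA and at 647 (75.4%) and 689 (80.3%) in ZnCl2. In the 4 treated libraries 373 domains (43.5%) kept that form throughout and 30 in no library. Both TPA libraries kept it at 516 domains (60.1%), where 3.75% of all 23364 regions with a single call per control library met that condition, and both ZnCl2 libraries at 538 (62.7%), where 6.44% did. Since the domains were chosen for width, these shares against the background are a description.

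The median of the widest call over the domains with a call was 3520 bp in Control 1, 4790 bp in Control 2, 3530 bp in TPA 1, 3540 bp in TPA 2, 3820 bp in ZnCl2 1 and 4340 bp in ZnCl2 2. Domains with no call are left out, 89 of 858 in ZnCl2 2 and 13, 5 and 2 in TPA 1, TPA 2 and ZnCl2 1. The treated medians all lay between those of the controls. The TPA mean was 3535 bp ± 7.07 (SD, n = 2) and the ZnCl2 mean 4080 bp ± 368, against 4155 bp ± 898 in the controls. TPA was thus 620 bp below the controls and ZnCl2 75 bp below, both within the gap between the control libraries, which both comparisons share. The rule did not use the treated lists, so TPA and ZnCl2 can be tested against each other. TPA was 545 bp narrower, both TPA libraries lying below both ZnCl2 libraries, with p = 0.333 in a two-sided exact permutation test, the smallest p that 2 against 2 libraries allow. The share held as a single call of at least 3000 bp was 70.1% ± 0.412 under TPA and 77.9% ± 3.46 under ZnCl2, a difference of -7.75 percentage points (exact permutation p = 0.333). Over domains of at least 4000 bp this difference was -0.225 points (exact permutation p = 1), and with lists cut to equal length -14.7 points (exact permutation p = 0.333). Neither difference could pass 0.05 with this number of libraries. Ranked within its own list instead, the TPA median was 1.58 percentile points above that of ZnCl2 (97.1 and 95.6 against 96.2 and 93.4), so the order of the treatments turned when each list's own spread of widths was taken into account.

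**Figure D3:**
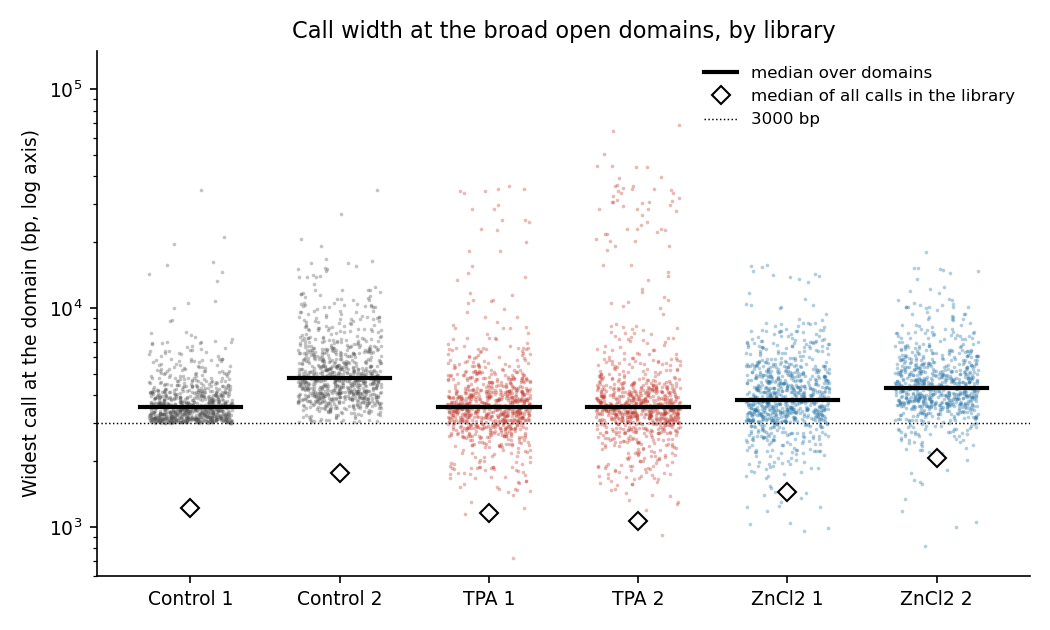
Width of the widest call (y axis, bp, log axis) at each domain in each library (points), with the median over domains (bar) and the median of all calls of that library (diamond). Domain medians of 3520 to 4790 bp stood above the library medians of 1070 to 2070 bp, and the TPA libraries had a tail of calls over 20 kb.

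Counted domain by domain, both TPA calls were narrower than both control calls at 286 of 844 domains (33.9%), where 17.3% of all regions were, and wider at 31 (3.67%), where 2.04% were. Both ZnCl2 calls were narrower than both control calls at 94 of 768 domains (12.2%), against 2.3% of all regions, and wider at 63 (8.20%), against 12.2%. Having been chosen for wide control calls, the members were selected toward narrower calls in any other library, so nothing is read from these counts. Between the treatments, which the rule leaves free, TPA was narrower than ZnCl2 at 377 of 759 domains (49.7%), where it was narrower at 56.9% of all regions, and wider at 43 (5.67%), where it was at 2.4%.

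The same rule run on the other conditions shows how far the choice sets the direction. It gave 1006 domains on the TPA lists and 1697 on the ZnCl2 lists, and 524 (61.1%) of the control domains overlapped a TPA domain and 541 (63.1%) a ZnCl2 domain. At the TPA-chosen domains the median width was 3820 bp in both TPA libraries and 3240 and 4800 bp in the controls. At the ZnCl2-chosen domains it was 3740 and 4030 bp under ZnCl2, 2950 and 2980 bp under TPA, and 2720 and 4420 bp in the controls. TPA lay below ZnCl2 at control-chosen and ZnCl2-chosen domains, and at TPA-chosen domains it lay between the ZnCl2 libraries (3790 and 4300 bp). Chosen on Control 1 alone (1089 calls), the median was 4915 bp in Control 2, 3590 bp in both TPA libraries and 3870 and 4400 bp under ZnCl2. Chosen on Control 2 alone (7771 calls), it was 2020 bp in Control 1, 2180 and 2170 bp under TPA and 2690 and 3200 bp under ZnCl2. Regions with no call are left out of a library's median, so the libraries are compared over different subsets. Of the 7771 regions, 6367 had a call in Control 1, 7013 and 7271 under TPA, and 7396 and 5563 under ZnCl2. In these medians the held-out control stood above the treated libraries in the first choice and below them in the second.

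**Figure D4:**
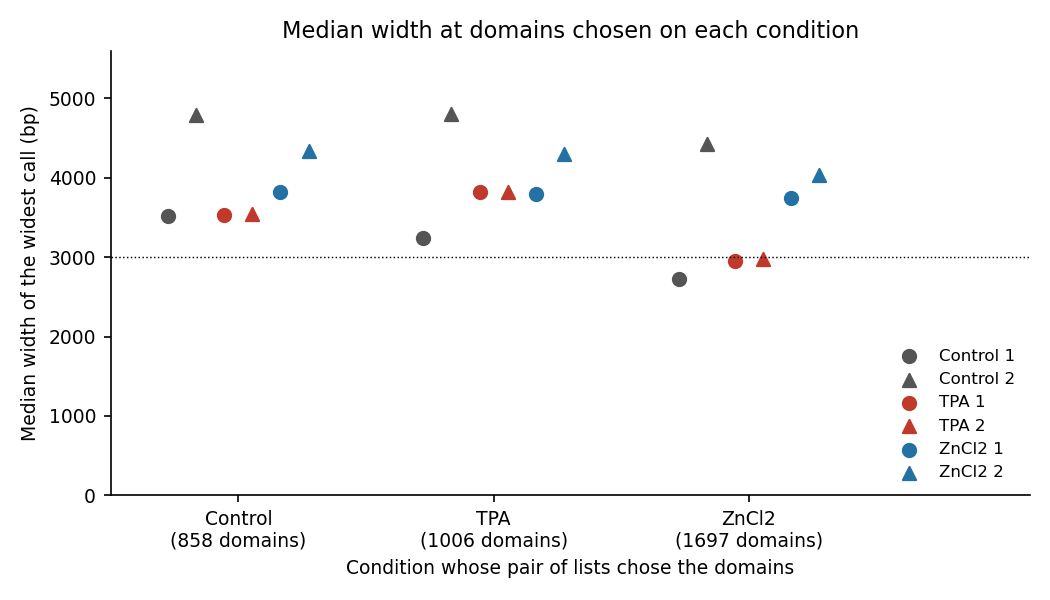
Median width of the widest call (y axis, bp) in each library (circles replicate 1, triangles replicate 2) at domains chosen by the same rule on the lists of each condition (x axis). The controls stand apart from each other at each choice, 3520 against 4790 bp at their own domains, and the TPA pair sits at 3820 bp at TPA-chosen domains.

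The caller's score, ranked as the percent of a library's calls with a lower score, was high at the domains. Its median was at percentile 75.5 in Control 1, 85.9 in Control 2, 77.7 in TPA 1, 82.3 in TPA 2, 82.1 in ZnCl2 1 and 68.0 in ZnCl2 2. The TPA mean of 80.0 ± 3.29 and the ZnCl2 mean of 75.1 ± 9.98 (SD, n = 2) differed by 4.92 points (two-sided exact permutation p = 0.667), under ZnCl2 1 inside the TPA range. Without ZnCl2 2 the difference was -2.13 points and with lists cut to equal length -0.43, so its direction rested on that library and on list length. Against the controls (80.7 ± 7.33) TPA was 0.721 points lower and ZnCl2 5.64 points lower. With lists cut to equal length these differences were -3.49 points for TPA and -3.06 points for ZnCl2, so their order also depended on list length.
Both TPA libraries ranked below both controls at 199 of 844 domains (23.6%, against 12.6% of all regions) and above at 175 (20.7%, against 24.7%). Both ZnCl2 libraries ranked below at 160 of 768 (20.8%, against 17.4%) and above at 14 (1.82%, against 2.83%). Since control width chose the members, nothing is read from these counts against the controls. TPA ranked below ZnCl2 at 119 of 759 (15.7%, against 12.7%) and above at 230 (30.3%, against 36.9%).

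At the immediate early domains most treated calls were still at least 3000 bp wide. Over the 14 domains the median width was 3560 bp in Control 1, 6005 bp in Control 2, 4175 bp in both TPA libraries, 5195 bp in ZnCl2 1 and 4920 bp in ZnCl2 2. A single call of at least 3000 bp was kept at 13, 11, 13 and 14 of them in TPA 1, TPA 2, ZnCl2 1 and ZnCl2 2. TPA was narrower than ZnCl2 in both libraries at 7 of 14 and wider at none, where over all 759 domains these were 49.7% and 5.67%. The list was chosen with results of these data known.

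Ranked by the smaller control width, the widest immediate early domain was at DUSP4, another MAP kinase phosphatase, with calls of 6400 and 8620 bp in the controls, 6370 and 5590 bp under TPA and 6350 and 4300 bp under ZnCl2. DUSP1 had 6070 and 6160 bp in the controls, 4710 and 4930 bp under TPA and 5250 and 4880 bp under ZnCl2. At both phosphatases every treated call was narrower than both control calls, and at DUSP1 each TPA library divided the domain into 2 calls. IER2, a growth factor-induced nuclear protein, had 5750 and 9150 bp in the controls, 8340 and 7240 bp under TPA and 8050 and 9780 bp under ZnCl2, with overlapping groups. FOSL2, an AP-1 subunit, had 4340 and 7310 bp in the controls, 4580 and 4230 bp under TPA and 5130 and 5000 bp under ZnCl2, so both TPA calls lay below both ZnCl2 calls.
SPRY4, an inhibitor of growth factor signaling, had 4140 and 6430 bp in the controls, 4220 and 4450 bp under TPA and 4330 and 5770 bp under ZnCl2. FOS had 3900 and 5130 bp in the controls, 3750 and 3290 bp under TPA and 5230 and 4960 bp under ZnCl2. Both TPA calls at FOS were thus below both control calls and below both ZnCl2 calls.

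At EGR1, whose CArG boxes are shown above, the calls were 3610 and 4360 bp in the controls, 3270 and 3960 bp under TPA and 5160 and 8880 bp under ZnCl2. Its score stood at percentile 99.5 to 99.7 in the 6 libraries. JUND had 3410 and 5850 bp in the controls, 4130 and 3550 bp under TPA and 5900 and 8930 bp under ZnCl2. IER3, a stress-induced gene, had 3280 and 4340 bp in the controls, 3350 and 1720 bp under TPA and 4700 and 4690 bp under ZnCl2. In TPA 2 the IER3 domain was split, and the call over the start site was 1190 bp wide. At these 3 genes, named here after their values were seen, both ZnCl2 calls were wider than both control calls and than both TPA calls. Both ZnCl2 calls were narrower than both control calls at DUSP1, DUSP4 and KLF6. The TPA calls at the 14 domains overlapped the controls at 11 and lay below them at DUSP1, DUSP4 and FOS. Over all domains tested, ZnCl2 was wider than the controls at 8.20% and narrower at 12.2%, and TPA was narrower at 33.9%. Over all regions these shares were 12.2%, 2.3% and 17.3%. Control width chose the members, so nothing is read from these counts.

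**Figure D5:**
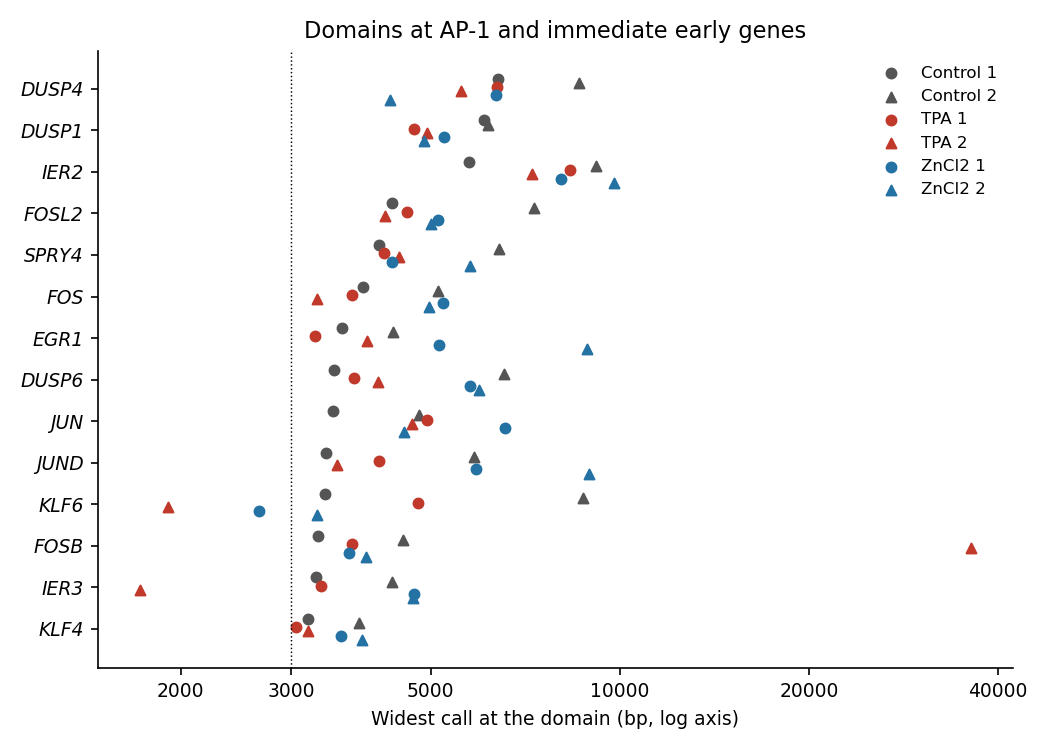
Width of the widest call (x axis, bp, log axis) in each library (gray Control, red TPA, blue ZnCl2; circles replicate 1, triangles replicate 2) at the 14 domains of AP-1 and immediate early genes, ordered by the smaller control width. The ZnCl2 points lie right of the controls at EGR1, JUND and IER3, and a TPA 2 call of 36210 bp covers FOSB.

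Among the basal identity domains, the ITGA6 start site had calls of 5060 and 5350 bp in the controls, 28250 and 28380 bp under TPA and 3640 and 2300 bp under ZnCl2. A further domain inside the gene had 3120 and 3460 bp in the controls, and the same TPA calls covered both, so they are not independent. With ZnCl2 it had 1030 bp in ZnCl2 1 and no call in ZnCl2 2. SFN had 4790 and 5830 bp in the controls, 4660 and 8290 bp under TPA and 4840 and 5010 bp under ZnCl2. JAG1 had 4160 and 8210 bp in the controls, 5350 and 5630 bp under TPA and 5570 and 5450 bp under ZnCl2, and the groups overlapped at SFN and JAG1. KRT5 had 3430 and 10340 bp in the controls, 3580 and 27870 bp under TPA, 6810 bp in ZnCl2 1 and no call in ZnCl2 2. Each TPA library split the KRT5 domain into 3 calls, and in TPA 2 the call over the start site was 3530 bp wide, the 27870 bp call being a neighbor that also covers the KRT6A start.

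At MT2A, the zinc list's member, calls were alike in width in the 6 libraries. Its widest call was 5660 and 6320 bp in the controls, 5530 and 6150 bp under TPA and 6270 and 6250 bp under ZnCl2. Both TPA calls lay below both ZnCl2 calls, and both treatments overlapped the controls. Its score stood at percentile 70.7 and 79.6 in the controls, 80.8 and 86.5 under TPA and 82.9 and 81.1 under ZnCl2, so both treatments ranked above the controls and overlapped each other.

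The developmental regulators include ID1, an inhibitor of bHLH factors, with 7020 and 7470 bp in the controls, 5390 and 2980 bp under TPA, 5690 bp in ZnCl2 1 and no call in ZnCl2 2, and it was split in both TPA libraries and in ZnCl2 1, with 2460 bp over the start site in TPA 2. Of the Iroquois homeobox genes, IRX5 had 5350 and 6760 bp in the controls, 5970 and 3240 bp under TPA and 5430 and 3700 bp under ZnCl2. IRX2 had 4810 and 8520 bp in the controls, 4820 and 5300 bp under TPA and 7860 and 7740 bp under ZnCl2. At IRX2 the TPA calls thus lay below those under ZnCl2, while at IRX5 the groups overlapped. TBX3, a T-box factor of mammary development, had 3930 and 4670 bp in the controls, 3190 and 3950 bp under TPA and 2860 and 3580 bp under ZnCl2. IRX3 had 3880 and 4560 bp in the controls, 3850 and 3840 bp under TPA and 4690 and 4080 bp under ZnCl2. TPA lay below both other conditions at IRX3, whereas at TBX3 it was ZnCl2 that lay below the controls. SOX4, the last of this list by smaller control width, had 3000 and 5380 bp in the controls.

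At glucocorticoid response genes the groups overlapped, apart from DUSP1. FKBP5, a co-chaperone of the glucocorticoid receptor, had 4040 and 7000 bp in the controls, 4890 and 4480 bp under TPA and 5910 and 3750 bp under ZnCl2. CEBPD, a bZIP factor, had 4080 and 5840 bp in the controls, 4180 and 4300 bp under TPA and 3350 and 5500 bp under ZnCl2. KLF9, a zinc-finger factor, had 3000 and 4670 bp in the controls, 3790 and 4150 bp under TPA and 4340 and 3760 bp under ZnCl2. The KLF9 start site itself was under no call in Control 1 and in neither TPA library, so there the domain reached it through Control 2.

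The YAP partner AJUBA, a LIM protein of cell junctions, had 7000 and 7940 bp in the controls, 7290 and 7120 bp under TPA, 7180 bp in ZnCl2 1 and no call in ZnCl2 2. TEAD4, the DNA-binding partner of YAP, had 3070 and 4130 bp in the controls, 2670 and 3390 bp under TPA and 3900 and 3790 bp under ZnCl2. Both TPA calls at TEAD4 lay below both ZnCl2 calls, and its score stood at percentile 80.8 and 81.1 in the controls, 35.4 and 38.3 under TPA and 83.4 and 63.6 under ZnCl2. Of the housekeeping genes, HSPA8, a constitutive chaperone, had 3950 and 11390 bp in the controls, 3920 and 4210 bp under TPA and 6940 and 10880 bp under ZnCl2. YWHAZ, a 14-3-3 protein, had 4420 and 6600 bp in the controls, 4450 and 4340 bp under TPA and 4320 and 5550 bp under ZnCl2. At HSPA8 the control libraries differed by more than either treatment mean did from the control mean. In ZnCl2 1 the HSPA8 domain was split, and the call over the start site was 2490 bp wide.

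Among the luminal genes, KRT7, a simple epithelial keratin, had 3660 and 7060 bp in the controls, 6500 and 4470 bp under TPA, 7040 bp in ZnCl2 1 and no call in ZnCl2 2. MUC1, an apical mucin, had 3530 and 5430 bp in the controls, 3850 and 4020 bp under TPA and 4690 and 3810 bp under ZnCl2. VIM had 3120 and 5230 bp in the controls, 4030 and 3370 bp under TPA and 3430 and 4640 bp under ZnCl2. At MUC1 and VIM every treated call lay between the control calls. TUBB3 had 3830 and 7820 bp in the controls, 4350 and 3810 bp under TPA and 7590 and 5560 bp under ZnCl2, with TPA below ZnCl2.

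Over the 9 histone domains the median width was 3790 and 5010 bp in the controls, 4860 and 4610 bp under TPA and 3240 and 4270 bp under ZnCl2. ZnCl2 1 kept a single call of at least 3000 bp at 4 of the 9, and the other treated libraries at 8 or 9. At H2BC3 and H3C3 the calls were 3320 and 4050 bp in the controls, 4860 and 4840 bp under TPA and 3430 and 4090 bp under ZnCl2. At H3C8 and H2BC10 they were 5710 and 5810 bp, 5540 and 5720 bp, and 2910 and 3940 bp. Both pairs of TPA calls were wider than both ZnCl2 calls. TPA was wider than ZnCl2 in both libraries at 4 of the 9, against 5.67% of all domains, and narrower at 1 (H2BC21 with H2AC20 and H2AC21), against 49.7%. This family was singled out after its values were seen, and it was not tested.

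The lowest ratios of mean TPA to mean control width, among domains whose TPA and control calls did not overlap, were at MAFA, AP2M1 and a stretch in MAML1. These are descriptions, since control width chose the members. AP2M1, a clathrin adaptor subunit, had 3650 and 4670 bp in the controls, 1150 and 1400 bp under TPA and 3570 and 3940 bp under ZnCl2. MAFA, a bZIP transcription factor, had 3350 and 6650 bp, 1400 and 1610 bp, and 3490 and 1600 bp. MAML1, a Notch coactivator, had 7680 and 4770 bp, 1860 and 1980 bp, and 2930 and 3570 bp. These ratios were 0.301 at MAFA, 0.306 at AP2M1 and 0.308 at MAML1.

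At the domains with the highest ratios for TPA a single very long call ran over the domain. EEF2K, the kinase of elongation factor 2, had 3200 and 3050 bp in the controls, 35210 and 35230 bp under TPA and 3340 and 2710 bp under ZnCl2. CSRNP1, a nuclear factor, had 4130 and 4910 bp, 36310 and 36430 bp, and 4690 and 4250 bp. The third was the ITGA6 domain inside the gene. A TPA call of more than 20 kb covered 51 domains, in 10 of them in both TPA libraries, and such a call covered 2 and 3 domains in the controls and none under ZnCl2. The TPA lists as a whole held 90 and 684 calls of that width, and the other lists 1 to 12. Without these 51 domains the difference between TPA and ZnCl2 was -620 bp (exact permutation p = 0.333).

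With ZnCl2 the lowest ratio was at the KLRC genes, at 16340 and 26930 bp in the controls, 34130 and 30660 bp under TPA and 2600 and 820 bp under ZnCl2. ZNF57 had 21050 and 20730 bp in the controls, 23010 and 22650 bp under TPA and 2200 and 1640 bp under ZnCl2. ARMC1, an outer mitochondrial membrane protein, had 6560 and 13860 bp, 13850 and 26660 bp, and 1180 and 2440 bp. These 3 domains were wide in the controls and in TPA and short in both ZnCl2 libraries.
The highest ratio under ZnCl2 was at GPX4, the selenoenzyme that repairs lipid peroxides, with 4500 and 5270 bp in the controls, 8190 and 8150 bp under TPA and 14140 and 14470 bp under ZnCl2. ZBTB7B, a zinc-finger factor, had 3660 and 4140 bp, 3560 and 5720 bp, and 10140 and 10180 bp. SLC35B2, a transporter of sulfate donors, had 3190 and 5060 bp, 3350 and 3280 bp, and 14360 and 6250 bp. In ZnCl2 1 the call over the start of the neighboring HSP90AB1 had that same width of 14360 bp. GPX4 had longer calls in the 4 treated libraries than in either control, whereas the TPA calls at ZBTB7B and SLC35B2 overlapped or straddled the control calls.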

How the data were processed

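Open chromatin was measured by ATAC-seq in 6 libraries of MCF10A cells, 2 each for Control, TPA and ZnCl2, grouped by the sample labels. Per the labels, each library was sequenced in more than a single run and the runs were combined. The authors trimmed adapters with BBDuk, mapped reads to hg38 with HISAT2 2.1.0 and SAMtools 1.8, checked quality with FastQC 0.11.8, and called open regions per library with HMMRATAC, whose version is not given in the sources used here. The deposited lists give each region's position and a score in column 5, a whole number of at least 30 whose kind is not stated. The scores were used only as ranks within a list. The widths came in steps of 10 bp. No read counts were used, so depth is unknown and the number of calls is the sole measure of yield.

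Calls on chromosomes 1 to 22 and X were kept, and the control lists were merged where regions overlapped or touched. The width of a domain in a library was that of the widest call overlapping it by at least 1 bp, and the score percentile was the share of that list with a lower score. Library medians of both were taken over the domains or regions with a call in that library. Start sites came from GENCODE 44 coding genes also in RefSeq, and the gene of a domain is the coding gene that starts in it, or else the gene body under it, or else the nearest coding start. Promoter sequences are RefSeq's (GRCh38.p14). Control against treatment is descriptive, because control width chose the members. TPA against ZnCl2 was compared over library medians by two-sided exact permutation. Named genes were the 10 widest domains, those holding a listed gene's start site (the 6 widest of a long list in full), the 3 with the highest and the 3 with the lowest width ratio per treatment, and those next to the 3000 bp limit. EGR1, JUND and IER3 and the gene families were added after their values were seen. The members and the gene lists were chosen with earlier results of these data known. Replicate numbers were not treated as pairs: differences between replicates 1 and 2 correlated at -0.02 to 0.02 between conditions over 15637 regions. Merging was checked against bedtools 2.31.1 and the test against SciPy 1.17.1, and domain finding was tested on simulated data. Python 3.11.15 and NumPy 2.4.6 were used. The later steps of the authors' pipeline, which need reads, were not repeated, and their artifact list was not used here. The values of a listed gene are not reported here.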

Additional observations from a re-analysis of the deposited data

How the results depend on the processing

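Control call width sets membership and 2 libraries per condition set the precision, so no comparison could pass 0.05. The number of domains was 858, but 3827 with a minimum of 2000 bp and 222 with 4000 bp. The width difference between TPA and ZnCl2 was negative under each alternative measured in bp, -805 to -285 bp when leaving out a library, -348 bp as bases covered, and turned to 1.58 percentile points when width was ranked within its list. The score percentile difference turned to -0.43 with equal numbers of regions and to -2.13 without ZnCl2 replicate 2 (from -2.13 to 12.0 over the libraries left out). The difference in the share held as a single wide call was -10.2 to -5.30 points over the libraries left out, -0.225 points with domains of at least 4000 bp and -14.7 points with equal numbers of regions (exact permutation p = 1 and 0.333). Against the controls, TPA width ranged from -1255 to 15 bp and ZnCl2 width from -710 to 560 bp over the libraries left out, and score percentile from -5.91 to 4.46 and from -12.7 to 1.41 points. Chosen on Control replicate 2 alone, ZnCl2 exceeded the held-out control by 925 bp and TPA by 155 bp, and chosen on Control replicate 1 alone they were -780 and -1325 bp from it. Regions with no call are left out of these medians, so the libraries differ in the regions counted. Paired as a replicate block, the differences between TPA and ZnCl2 were -545 bp, 4.92 percentile points and -7.75 points (exact sign-flip test of the mean difference, p = 0.5, 1 and 0.5). Those against the controls were -620 and -75 bp, and -0.72 and -5.64 points. With equal groups the block leaves each mean difference the same by arithmetic, and with 2 pairs the sign-flip p cannot go below 0.5. Nothing about pairing can be read from it. The alternatives on immediate early genes and on calls over 20000 bp were chosen after seeing the data.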
